A study of Homo sapiens with 9 samples.

Results

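HNT34 cells are a human acute myeloid leukemia (AML) line with high levels of EVI1, the zinc finger transcription factor made from the MECOM locus. Cells received 1 of 3 shRNAs from a lentiviral vector, the non-targeting control (NT) or one of the EVI1-directed sh#16 and sh#87, and RNA was sequenced 3 days after puromycin selection, with 3 libraries in each of the 3 groups. All groups therefore carry the vector and its drug selection, all come from 1 cell line, and the sources do not state that the libraries of a group are separate cultures, so SDs and n describe libraries. In one label field the sh#87 libraries carry the shRNA number 18, and they were grouped by the 87 of their titles. Described here are the genes whose RNA lay on opposite sides of the NT level with the different shRNAs.

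The genes were selected on their measured values. Counts were scaled to TMM CPM (CPM is a count scaled to a common library size, here with the trimmed-mean correction TMM), and group means over 3 libraries were compared. A gene was taken at a mean of at least 5 CPM over all 9 libraries, with 1 shRNA at least 25% above NT, the other at least 20% below NT, and no overlap between the sh#16 and sh#87 libraries. Names starting with MT- or RN7S were left out. Of 16612 genes in the table, 11100 could enter, and 47 of these (0.423%) met the rule. Higher with sh#16 and lower with sh#87 were 27 genes (0.243%), and 20 genes (0.18%) were lower with sh#16 and higher with sh#87. Because the rule used every contrast between the groups, levels and fold changes of the 47 genes are given as description, without p-values. All 47 passed edgeR's filter on low counts.

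As background, RNA interference lowers a target mRNA through a short guide RNA, and separate shRNAs against 1 target differ in guide sequence, in depth of knockdown and in the other transcripts they may touch. The replication-dependent histone clusters hold 7 of the 47, of which H2BC19P and H2BC20P are pseudogenes. Coding genes of these clusters are transcribed in S phase and their usual mRNAs end in a stem-loop in place of a polyA tail. Only the polyadenylated part of such transcripts enters a polyA-selected library like these.

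The H2B promoters are shown first because 4 coding H2B genes formed the largest family among the 47. The octamer, the element through which POU2F1 (Oct-1) drives H2B transcription, is in capitals (ATTTGCAT, or its reverse complement). Sequences are from RefSeq (GRCh38.p14), 5′ to 3′ on the gene's strand, 250 bases before to 50 bases after the annotated start. They lie at chr6:26272681-26272980 (plus strand), chr6:27132746-27133045 (minus strand) and chr6:27893175-27893474 (plus strand), in this order.
H2BC10: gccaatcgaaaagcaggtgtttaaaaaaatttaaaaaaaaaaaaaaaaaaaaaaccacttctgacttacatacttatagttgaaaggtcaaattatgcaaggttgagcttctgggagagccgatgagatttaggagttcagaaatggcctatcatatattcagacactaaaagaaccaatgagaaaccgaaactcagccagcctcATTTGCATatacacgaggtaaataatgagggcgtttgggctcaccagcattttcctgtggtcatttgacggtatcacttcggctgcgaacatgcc
H2BC11: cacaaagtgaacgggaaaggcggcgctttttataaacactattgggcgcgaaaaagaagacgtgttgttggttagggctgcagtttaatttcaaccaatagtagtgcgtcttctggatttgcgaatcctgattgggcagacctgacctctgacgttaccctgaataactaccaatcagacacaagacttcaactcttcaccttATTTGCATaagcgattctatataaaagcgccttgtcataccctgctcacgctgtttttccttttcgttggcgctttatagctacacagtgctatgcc
H2BC17: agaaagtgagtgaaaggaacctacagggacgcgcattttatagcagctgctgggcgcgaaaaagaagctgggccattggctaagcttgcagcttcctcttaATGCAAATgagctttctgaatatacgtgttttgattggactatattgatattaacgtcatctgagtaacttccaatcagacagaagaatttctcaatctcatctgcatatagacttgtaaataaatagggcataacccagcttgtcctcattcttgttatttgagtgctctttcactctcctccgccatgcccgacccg
The octamer began 45 bases before the start in H2BC10, 47 bases before it in H2BC11 and 149 bases before it in H2BC17. It was present in 12 of the 15 H2B promoters that could be read and in 1.77% of 35116 promoters of the same length. Among the promoters of the 47 genes it occurred in these 3. H2B genes outside the 47 hold it as well, so its presence does not set the members apart.

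EGR1, from the group that was higher with sh#87, and ACTG1, from the group that was higher with sh#16, both carry the CArG box, the site bound by serum response factor, shown in capitals. EGR1 encodes a zinc finger factor of the immediate early response and ACTG1 encodes cytoplasmic gamma-actin, and both are textbook targets of serum response factor. The stretches are chr5:138465229-138465528 (plus strand) and chr17:81512750-81513049 (minus strand), from the same RefSeq build and in the same window.
EGR1: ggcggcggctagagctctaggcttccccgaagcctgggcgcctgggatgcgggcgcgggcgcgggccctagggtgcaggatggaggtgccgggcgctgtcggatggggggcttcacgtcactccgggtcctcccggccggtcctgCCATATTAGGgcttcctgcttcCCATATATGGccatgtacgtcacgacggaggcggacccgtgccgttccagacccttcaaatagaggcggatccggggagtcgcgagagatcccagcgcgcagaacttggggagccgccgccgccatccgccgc
ACTG1: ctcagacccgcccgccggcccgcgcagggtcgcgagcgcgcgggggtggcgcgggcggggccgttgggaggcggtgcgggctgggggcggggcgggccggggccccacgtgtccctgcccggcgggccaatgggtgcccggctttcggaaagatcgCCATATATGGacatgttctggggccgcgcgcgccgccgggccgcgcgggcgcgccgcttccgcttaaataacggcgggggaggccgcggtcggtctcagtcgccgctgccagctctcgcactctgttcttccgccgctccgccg
EGR1 held 2 CArG boxes, which began 105 and 83 bases before the start, and ACTG1 held 1, which began 94 bases before it. The box occurred in 1.29% of all promoters. The same element thus stood before genes of both directions.

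Of the 47 genes, 31 had a promoter in the table, 22 of the group higher with sh#16 and 9 of the other. Both strands were searched. The E-box CACGTG, the site of MYC-MAX dimers, occurred before FLT3, TMEM51, TBC1D3L and the gamma-actin gene (7.26% of all promoters). A GATA-type site, AGATAA, occurred before IL18BP and ITM2A (10.3%). ZNF22 held CCGGAAGT, a site of ETS factors (4.14%). GAAGATGAG, a site of the second EVI1 zinc finger domain (0.347%), and the AP-1 site TGACTCA (4.95%) matched in none of the 31, which says only that these letters are not in these windows. The octamer and the CArG box were added to the search after the members were known.

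Several facts of the whole series touch every value below. The libraries held between 17096170 and 43502389 counts. MECOM was at 570, 503 and 440 CPM in the NT libraries, 146, 143 and 146 CPM in sh#16 and 109, 107 and 106 CPM in sh#87, so both shRNAs lowered the targeted transcript, and sh#87 left less of it. Of 10 markers fixed for the AML line, 8 could be read, and they summed to 2540 to 2631 CPM in NT, 760 to 761 in sh#16 and 604 to 613 in sh#87 libraries. That sum includes the targeted MECOM, and its parts moved unevenly. Ratios to NT with sh#16 and sh#87 were 0.167 and 0.117 for PTPRC and 0.16 and 0.0582 for CD34. SPI1 had 0.248 and 0.13, and KIT 0.4 and 0.323. CD33 had 0.893 and 0.825, ABL1 0.743 and 0.744, and BCR 1.02 and 1.18. COL1A1, the 1 stromal marker of 4 that could be read, was at 0.0432 to 0.172 CPM in NT, 26 to 26.9 in sh#16 and 28.1 to 30.3 in sh#87. The 1 T cell marker of 4 (CD3E) was at 7.13 to 10.1, 4.22 to 5.26 and 2.65 to 3.36 CPM, the 2 B cell markers of 3 summed to 13.7 to 40.3, 4.24 to 4.45 and 1.42 to 1.93, and the 2 epithelial or packaging cell markers of 4 to 126 to 137, 92.4 to 99.5 and 70 to 76.9. The part of these shifts in the results was not tested, and in bulk RNA fewer cells of a type and less RNA per cell cannot be told apart. Mitochondrially encoded genes took 15.9%, 11.5% and 4.69% of the counts of NT replicates 1, 2 and 3, against 2.69% to 2.88% in sh#16 and 4.62% to 5.97% in sh#87. Libraries of 1 group differed by more than sampling noise in every pair, with a chi-square per degree of freedom of 60.2 to 324 within NT, 2.49 to 5.78 within sh#16 and 7.09 to 10.9 within sh#87.

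Against this background most genes were displaced to the same side of NT by both shRNAs, and the 47 lay off that diagonal. Of the 11100 genes, 1067 had group means on opposite sides of NT, and for 962 of these the sh#16 and sh#87 libraries did not overlap, so the size of the change excluded far more genes than the overlap did. No gene failed by overlap alone. For the first direction the ratio to NT ran from 1.26 to 3.14 with sh#16 (median 1.36) and from 0.413 to 0.795 with sh#87 (median 0.712). For the second it ran from 0.539 to 0.797 with sh#16 (median 0.724) and from 1.26 to 2.85 with sh#87 (median 1.42). Thus the typical member sat a modest distance from NT on each side, while the shRNAs differed from each other by a median of 1.94-fold and 1.88-fold.

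**Figure D1:**
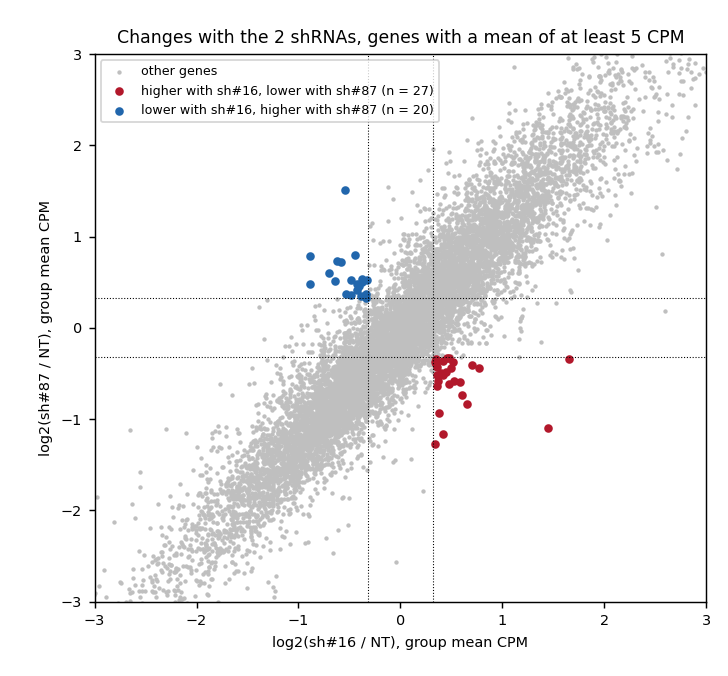
Each point is 1 of the 11100 genes with a mean of at least 5 CPM, placed by the log2 ratio of its group means, sh#16 to NT on the horizontal axis and sh#87 to NT on the vertical axis. Dotted lines mark 25% above and 20% below NT, red points are the 27 genes higher with sh#16 and lower with sh#87, blue points are the 20 of the reverse pattern, and 423 genes, none of them members, lie beyond the axis limit of 3. The cloud runs along the diagonal and the members stand at its flanks.

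Among the 27 genes higher with sh#16, 22 had every sh#16 library above the NT libraries, as 37.2% of the 11100 genes did, and 18 had every sh#87 library below them, as 43.6% did. In 16 the 3 groups did not overlap at all, an order that 0.847% of the 11100 genes had. Among the 20 genes higher with sh#87, 18 had 3 separate groups, an order that 0.505% of the genes had. In an edgeR quasi-likelihood fit over 16312 genes with Benjamini-Hochberg adjustment, read at an adjusted p below 0.05, 36.7% of genes were higher and 35.4% lower with sh#16 than with NT. For sh#87 against NT, 39.5% of genes were higher and 38.2% lower, and for sh#87 against sh#16 the shares were 16% higher and 17.7% lower. Of the 27 genes, 21 passed in sh#16 against NT, 23 in sh#87 against NT and 25 between the shRNAs. Of the 20, the numbers were 18, 18 and 19. Genes that passed on opposite sides of NT with both shRNAs were 0.362% of those tested in the first direction, 20 of the 27 among them, and 0.276% in the second, 18 of the 20 among them. As the rule used the same contrasts, nothing is read from these counts.

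**Figure D2:**
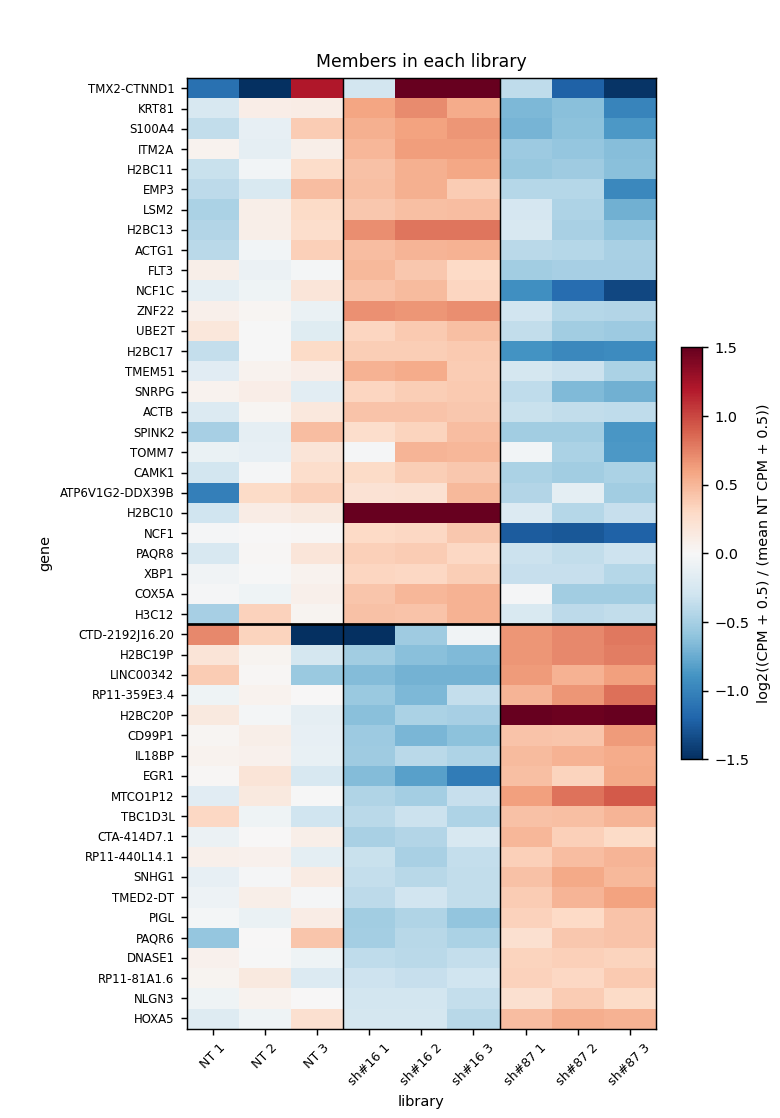
Columns are the 9 libraries, rows are the 47 genes ordered by direction (black line) and by the smaller of their changes, and color gives log2 of CPM over the mean NT CPM, each with 0.5 CPM added (red higher, blue lower, color limits at 1.5). The sh#16 and sh#87 blocks have opposite colors, the NT columns differ among themselves, and TMX2-CTNND1 and CTD-2192J16.20 vary within groups as much as between them.

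The histone genes were the largest family. H2BC10 was at 12.8, 17.1 and 17.6 CPM in NT, 46.7, 51.4 and 51.2 CPM in sh#16 and 13.6, 11.6 and 12.3 CPM in sh#87 libraries. Its level with sh#16 was 3.14 times NT (log2 fold change 1.65, SE 0.13), without overlap, whereas its sh#87 libraries overlapped NT and the ratio was 0.789 (log2 fold change -0.35, SE 0.13). H2BC17 was at 140, 178 and 219 CPM in NT, 231, 232 and 236 CPM in sh#16 and 96, 91.5 and 92.8 CPM in sh#87. Here the larger displacement was downward, to 0.523 times NT with sh#87 (log2 fold change -0.94, SE 0.14), against 1.3 times NT with sh#16. H2BC11 was at 97.7, 120 and 149 CPM in NT, 167, 178 and 184 CPM in sh#16 and 82.5, 84.8 and 79.2 CPM in sh#87, ratios of 1.44 and 0.67 with 3 separate groups. H2BC13 was at 87.8, 126 and 143 CPM in NT, 194, 208 and 208 CPM in sh#16 and 101, 84.7 and 78.5 CPM in sh#87, where the sh#87 range reached into that of NT. H3C12, an H3 gene of the same chromosome 6 cluster, was near the edge of the rule, with ratios of 1.38 and 0.795 and NT libraries at 64.2, 115 and 93.1 CPM.

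H2BC19P and H2BC20P, H2B pseudogenes on chromosome 1, went the other way. H2BC20P was at 40.9, 36.1 and 33.5 CPM in NT, 23.7, 26.3 and 25.9 CPM in sh#16 and 106, 103 and 106 CPM in sh#87, ratios of 0.687 and 2.85. Its sh#87 level was 4.15 times its sh#16 level, and all 3 groups stood apart. H2BC19P was at 38.7, 34.8 and 28.2 CPM in NT, 23.4, 21.7 and 21.2 CPM in sh#16 and 54, 56.1 and 58.2 CPM in sh#87, also without overlap. Both resemble coding H2B genes nearby, so the division of reads among them is uncertain. Summed over H2BC18, H2BC19P, H2BC20P and H2BC21, of which H2BC19P made up 4.49%, the level was 1.69 times NT with sh#16 and 1.18 times with sh#87, so the pseudogenes' pattern was not that of the locus.

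Across all 15 coding H2B genes tested, 10 were higher and 2 lower with sh#16 than with NT, and 4 were higher and 8 lower with sh#87, at an adjusted p below 0.05 in the edgeR fit. Set directly against sh#16, sh#87 was lower in 13 and higher in 1 (H2BC6), counts that include the 4 genes the rule chose. So the H2B genes outside the rule mostly had the same sign between the shRNAs but lay on 1 side of NT. H2BC14, for instance, had log2 fold changes of -0.73 (SE 0.26) with sh#16 and -3.26 (SE 0.29) with sh#87, and H2BC5 had 1.66 (SE 0.21) and 0.86 (SE 0.20). Over the whole list of 66 clustered histone genes the median log2 fold change was 0.98 with sh#16, 0.15 with sh#87 and -0.69 for sh#87 against sh#16, beside 0.04, 0.04 and -0.02 over all genes tested. By family, the median difference between the shRNAs was -0.93 for the 12 H4 genes, -0.73 for the 15 H2A genes, -0.52 for the 7 H1 genes and -0.42 for the 11 H3 genes. The 11 H3 genes were all higher with sh#16 than with NT and 9 were higher with sh#87, and between the shRNAs 2 of the 11 passed as lower with sh#87 (H3C11 and H3C12).

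**Figure D3:**
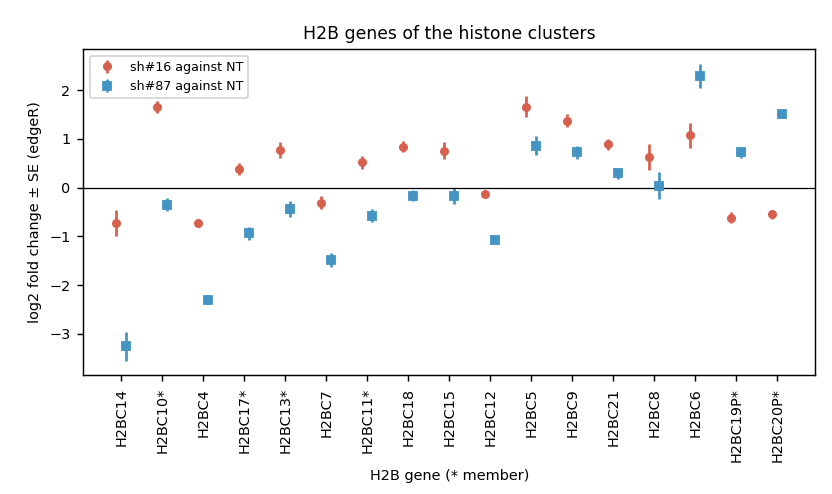
Points give the edgeR log2 fold change against NT of the 15 coding H2B genes and the pseudogenes H2BC19P and H2BC20P, circles for sh#16 and squares for sh#87, with bars of 1 SE (3 libraries per group) and asterisks at the 6 members. The genes are ordered from left to right by the sh#87 minus sh#16 difference, and the pseudogenes stand at the right end, where the squares lie above the circles.

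Both cytoplasmic actin genes were members. ACTB, cytoplasmic beta-actin, was at 2990, 3520 and 3850 CPM in NT, 4630, 4630 and 4560 CPM in sh#16 and 2730, 2680 and 2650 CPM in sh#87. ACTG1 was at 404, 517 and 682 CPM in NT, 738, 762 and 767 CPM in sh#16 and 405, 397 and 382 CPM in sh#87. The sh#16 and sh#87 libraries of both actins varied little, and the NT libraries spread widely between them, those of ACTG1 reaching down to the sh#87 range. Their ratios were 1.33 and 0.779 for ACTB, and 1.41 and 0.739 for ACTG1. KRT81, a hair keratin, was at 6.09, 7.83 and 7.92 CPM in NT, 11.2, 12.2 and 10.9 CPM in sh#16 and 4.36, 4.52 and 3.41 CPM in sh#87, with 3 separate groups. The log2 fold changes of KRT81 were 0.65 (SE 0.14) with sh#16 and -0.83 (SE 0.15) with sh#87. S100A4, a calcium-binding protein of motile cells, was at 30.4, 36.1 and 51.6 CPM in NT, 57.3, 60.2 and 62.6 CPM in sh#16 and 24.1, 25.5 and 21.5 CPM in sh#87, ratios of 1.53 and 0.601. EMP3, an epithelial membrane protein family member, had ratios of 1.39 and 0.653, but its NT libraries (8.62, 9.77 and 16.1 CPM) reached into the sh#16 range of 15.1 to 16.9 CPM.

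Among receptors and signaling genes, FLT3 encodes the receptor tyrosine kinase for FLT3 ligand on early hematopoietic cells and AML blasts. FLT3 was at 12.6, 11.1 and 11.6 CPM in NT, 16.7, 15.8 and 14.6 CPM in sh#16 and 8.1, 8.24 and 8.24 CPM in sh#87. All 3 groups were separate, and the log2 fold changes were 0.41 (SE 0.09) and -0.52 (SE 0.09). It was 1 of 17 genes on the list of stem cell and AML surface receptors, of which 5 were higher and 11 lower with sh#16, and 2 higher and 13 lower with sh#87, at an adjusted p below 0.05 in edgeR. ITM2A, a membrane protein of differentiating cells, was at 124, 109 and 128 CPM in NT, 170, 186 and 186 CPM in sh#16 and 82.2, 80.3 and 77.2 CPM in sh#87. Its log2 fold changes, 0.58 and -0.59 (SE 0.07 each), were almost mirror images. CAMK1, a calmodulin-dependent kinase, had ratios of 1.28 and 0.697, and SPINK2, a serine protease inhibitor found in AML stem cell signatures, had 1.28 and 0.642 with NT libraries between 26.6 and 52 CPM.

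NCF1 encodes p47phox, a cytosolic subunit of the phagocyte NADPH oxidase, and NCF1B and NCF1C are its near-identical pseudogenes. NCF1 was at 32.2, 32.7 and 32.9 CPM in NT, 40.1, 40.7 and 43.3 CPM in sh#16 and 13.4, 13.2 and 13.8 CPM in sh#87, the ratio of 0.413 being the lowest with sh#87 among the 27 genes. NCF1C was at 25.1, 26.5 and 31.7 CPM in NT, 37.5, 38.7 and 34.9 CPM in sh#16 and 14.5, 12.3 and 10.5 CPM in sh#87. NCF1B, which did not meet the rule, was at 35.8, 33.1 and 24.8 CPM in NT, 22.6, 19.1 and 19.5 CPM in sh#16 and 7.85, 5.02 and 7.33 CPM in sh#87. With sh#16 the copies thus diverged, NCF1 and NCF1C above NT and NCF1B below it. Their sum was 89.4 to 93.1 CPM in NT, 97.7 to 100 CPM in sh#16 and 30.5 to 35.7 CPM in sh#87 libraries, ratios of 1.08 and 0.356. The lower level with sh#87 therefore held for the sum of the copies, and the excess over NT with sh#16 was 1.08-fold for that sum, below the 25% of the rule.

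RNA processing, protein handling and mitochondrial genes supplied single members. LSM2 and SNRPG belong to the Sm and Lsm rings of spliceosomal RNPs. SNRPG was at 44.7, 46.2 and 38.7 CPM in NT, 54.3, 55.9 and 57 CPM in sh#16 and 33.1, 27.1 and 26.1 CPM in sh#87, without overlap. LSM2 had ratios of 1.36 and 0.717, with its NT libraries (17.2, 25.6 and 29.4 CPM) overlapping the sh#87 libraries. They were 2 of 102 tested genes of the splicing list, whose median log2 fold changes were -0.55 and -0.75, so most of that list moved down with both shRNAs (63 and 73 genes passed as lower). XBP1, the transcription factor of the unfolded protein response, was at 339, 351 and 366 CPM in NT, 442, 437 and 453 CPM in sh#16 and 278, 278 and 261 CPM in sh#87, with ratios of 1.26 and 0.774 and 3 separate groups. XBP1 was the 1 member on a list of 18 stress-response genes with medians of -0.28 and -0.40. ZNF22, a zinc finger protein, was at 11.6, 11.2 and 10.2 CPM in NT, 18, 17.7 and 18.2 CPM in sh#16 and 8.93, 8.06 and 7.99 CPM in sh#87, and was the 1 member among 443 tested ZNF genes. COX5A, a subunit of cytochrome c oxidase, had ratios of 1.39 and 0.793. It was 1 of 93 nuclear-encoded oxidative phosphorylation genes, a list with medians of 0.21 and -0.23, in which 38 were higher and 18 lower with sh#16, and 28 higher and 42 lower with sh#87. TOMM7, of the outer mitochondrial membrane translocase, had ratios of 1.28 and 0.741, but NT overlapped both other groups and it passed in neither contrast against NT.

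The remaining genes of this direction are UBE2T, TMEM51, PAQR8 and read-through transcripts. UBE2T, the ubiquitin-conjugating enzyme of the Fanconi anemia pathway, had ratios of 1.31 and 0.712 and 3 separate groups. TMEM51 (1.43 and 0.77) and PAQR8, a membrane progestin receptor (1.28 and 0.791), also had 3 separate groups. ATP6V1G2-DDX39B, at 2.23, 6.31 and 6.63 CPM in NT, shares sequence with DDX39B. Summed with DDX39B and ATP6V1G2, of which it made up 1.41%, the ratios were 0.986 and 0.817, neither of which meets the rule. TMX2-CTNND1, a read-through of TMX2 and CTNND1, was first by the smaller of its changes but was the least reproducible, at 1.89, 0.692 and 11.5 CPM in NT, 3.78, 18.6 and 16 CPM in sh#16 and 3.49, 1.75 and 1.37 CPM in sh#87. Its NT libraries overlapped both other groups, and its log2 fold changes had SEs of 0.87 and 0.96. Summed with TMX2 and CTNND1, of which it made up 2.36%, the ratios were 1.38 and 1.40, on the same side of NT. TMX2 alone had ratios of 0.473 and 0.364, and CTNND1 alone 1.81 and 1.96. The sum therefore does not show how the read-through itself changed.

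EGR1 had the widest gap between the shRNAs among the coding genes of the other direction, 2.58-fold. It was at 8.92, 10.2 and 7.43 CPM in NT, 5.46, 4.82 and 4.01 CPM in sh#16 and 12.3, 11.3 and 13.3 CPM in sh#87, with 3 separate groups. The log2 fold changes were -0.89 (SE 0.15) with sh#16 and 0.47 (SE 0.15) with sh#87. Other immediate early genes did not share this pattern. FOS went from 0.343, 0.259 and 0.499 CPM in NT to 12, 10.6 and 11.5 CPM in sh#16 and 24.5, 25.6 and 22.3 CPM in sh#87, above NT with both. EGR3 had log2 fold changes of 0.03 (SE 0.16) and 0.55 (SE 0.16), and JUN of -0.06 (SE 0.10) and -0.42 (SE 0.10). EGR1 was the 1 member on a list of 24 ERK feedback and immediate early genes, of which 11 were higher and 7 lower with sh#16 and 13 higher and 9 lower with sh#87.

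HOXA5, a homeobox gene of the HOXA cluster, was at 11.4, 12.5 and 15.5 CPM in NT, 10.8, 10.8 and 9.72 CPM in sh#16 and 18.2, 19.4 and 19 CPM in sh#87, with 3 separate groups but a ratio of 0.797 that only just met the rule. Its neighbors differed from it. HOXA6 was above NT with both, with log2 fold changes of 0.43 (SE 0.13) and 1.53 (SE 0.13), and HOXA4 below NT with both, with -1.41 (SE 0.17) and -0.55 (SE 0.16). HOXA9 had -0.78 (SE 0.13) and -0.19 (SE 0.13). Between the shRNAs, sh#87 was higher for HOXA3, HOXA4, HOXA6 and HOXA9, by 0.78, 0.86, 1.1 and 0.6 on the log2 scale, and these passed at adjusted p = 0.01, 0.00545, 0.000414 and 0.00721 in edgeR, whereas the differences of HOXA7 (0.14) and HOXA10 (-0.12) did not pass.

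IL18BP, the secreted decoy that binds interleukin 18, was at 23.5, 23.6 and 20.8 CPM in NT, 15.4, 17 and 16.2 CPM in sh#16 and 31.5, 32.6 and 33.4 CPM in sh#87. Its log2 fold changes were -0.49 and 0.52 (SE 0.08 each). DNASE1, a secreted endonuclease, was at 36, 34.2 and 33 CPM in NT, 26.2, 25.9 and 26.7 CPM in sh#16 and 43.6, 44.1 and 43.5 CPM in sh#87, with little spread in any group. PIGL, an enzyme of glycosylphosphatidylinositol anchor synthesis, had ratios of 0.689 and 1.29, and NLGN3, a neuroligin, had 0.791 and 1.26, both with 3 separate groups. PAQR6 is of the same receptor family as PAQR8 and had the reverse ratios, 0.715 and 1.29, but its NT libraries at 12.9, 19.5 and 26.2 CPM spanned nearly the whole range. TBC1D3L, of a recently duplicated gene family on chromosome 17, had ratios of 0.747 and 1.39, and 0.763 and 1.42 when summed with TBC1D3I. As TBC1D3L made up 96.6% of that sum, the sum is no check on reads shared within the family.

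Noncoding transcripts made up most of the rest. SNHG1, the host of several small nucleolar RNAs, was at 206, 223 and 246 CPM in NT, 176, 168 and 174 CPM in sh#16 and 305, 335 and 315 CPM in sh#87, with 3 separate groups. It was the 1 member of 58 host genes on the list, whose median log2 fold changes were -0.37 and -0.21. LINC00342, a long noncoding RNA, was at 55.6, 43.1 and 28.8 CPM in NT, 26.8, 25.8 and 25.8 CPM in sh#16 and 66.5, 61 and 65.3 CPM in sh#87, its NT libraries filling the gap between the other groups. TMED2-DT, a divergent transcript of TMED2, had ratios of 0.77 and 1.45 with 3 separate groups. The other 5 members carried clone names. The one in the fourth row under the black line of the plot by library had 3 separate groups and was at 5.02, 5.49 and 5.26 CPM in NT, 3.41, 3.11 and 4.01 CPM in sh#16 and 7.68, 8.6 and 9.72 CPM in sh#87. RP11-440L14.1, CTA-414D7.1 and RP11-81A1.6 had ratios of 0.755 and 1.37, 0.743 and 1.33, and 0.792 and 1.29, each with 3 separate groups. CTD-2192J16.20, with NT libraries at 8.83, 6.61 and 0 CPM and sh#16 libraries at 0, 3.4 and 4.94 CPM, overlapped NT in both groups and had SEs of 1.19 and 1.14.

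CD99P1 and MTCO1P12 are copies of other genes and their values are uncertain for that reason. CD99P1, a pseudogene of the surface protein gene CD99, was at 15, 15.7 and 13.5 CPM in NT, 9.96, 8.93 and 9.39 CPM in sh#16 and 20, 19.8 and 23.1 CPM in sh#87, whereas CD99 itself was at 0.396 and 0.332 times NT. MTCO1P12, a nuclear copy of the mitochondrial gene MT-CO1, was at 21.2, 26.6 and 23.8 CPM in NT, 17.3, 16.6 and 18.7 CPM in sh#16 and 36.8, 42.5 and 45.7 CPM in sh#87. MT-CO1 had ratios of 0.38 and 0.797, and MTCO1P12 held 0.14% of their sum.

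The directions differed in the kinds of transcript they held. Of the 27 genes higher with sh#16, 24 were protein coding by RefSeq (88.9%, beside 90.1% of the 11100). Of the 20 higher with sh#87, 8 were protein coding (40%) and 4 were pseudogenes (20%, beside 2.12% of the 11100). The rest were 3 long noncoding RNAs (15%, beside 2.73%) and 5 without a RefSeq entry (25%, beside 4.62%). Among 2116 tested clone-named transcripts as a whole, 569 were higher and 54 lower with sh#87 than with sh#16 (median log2 difference 0.43), and among 741 long noncoding RNAs with symbols, 192 were higher and 36 lower (0.25). TMX2-CTNND1 and ATP6V1G2-DDX39B, which RefSeq lists as long noncoding RNAs, were lower with sh#87. The sign of each member between the shRNAs was set by the rule. In all, 23 members were on 11 of the 42 lists, and the other 31 lists held none.

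Members higher with sh#16 had short transcripts. The median length was 1261 bases over the 26 with a length, beside 3302 bases over 10632 of the 11100 genes, and 12 of the 26 (46.2%) were under 1000 bases, beside 6.99%. Without the clustered histones the median was 1453 bases, with 7 of 21 under 1000. For the other direction only 14 of 20 (70%) had a length, with a median of 1606.5 bases and 21.4% under 1000, so the comparison is void there, and short length is not shown to be particular to either direction. Among all genes the log2 difference of sh#87 minus sh#16 moved with length, with a median of -0.5 under 500 bases (151 genes), -0.33 from 500 to 1000, -0.17 from 1000 to 2000, -0.09 from 2000 to 4000 and -0.02 above. When each library's trend on length and GC content was removed, 39 genes met the rule, 8 of them members (3 higher and 5 lower with sh#16). Of the 40 members with a length, 31 kept both signs against NT. The part of length in the result was otherwise not tested.

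Membership changed with the NT libraries, most with replicates 1 and 3. In 22 of the 27 genes higher with sh#16, NT replicate 3 was the highest NT library, and in 19 NT replicate 1 was the lowest, and these libraries had the lowest and the highest mitochondrial share of the NT group, 4.69% and 15.9%. The sh#87 libraries differed too, with replicate 1 highest in 18 and replicate 3 lowest in 20 of the 27. In the 20 genes of the other direction, NT replicate 3 was highest in 5 and lowest in 11, and NT replicate 1 lowest in 8. Of those 20, sh#87 replicate 3 was highest in 13 and replicate 1 lowest in 12. The share of all genes with such orders was not counted, so these counts are not read as a trait of the members. Without NT replicate 3, 28 of the 47 still met the rule, without NT replicate 1, 30 did, and without NT replicate 2, 40 did. Leaving out 1 of the sh#16 or sh#87 libraries kept between 40 and 46, and without sh#87 replicate 1 a total of 66 genes met the rule, 46 of them members. The scaling mattered as well. RLE scaling kept 44, TMM without the mitochondrially encoded genes 45 and upper-quartile scaling 31, while scaling by library totals kept 12 (8 higher and 4 lower with sh#16), since it moved the median log2 ratio of all genes to NT from -0.05 to 0.25 for sh#16 and from -0.13 to 0.17 for sh#87.

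**Figure D4:**
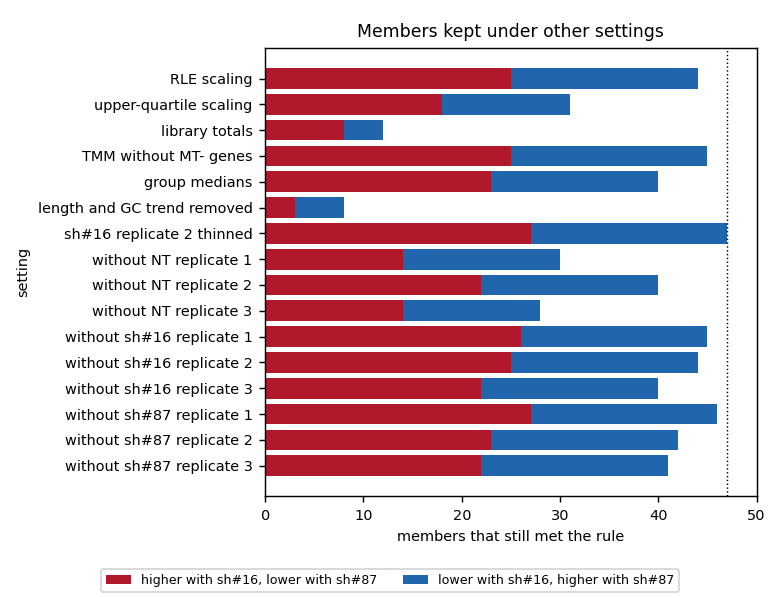
Bars give how many of the 47 members (dotted line) still met the rule under each other scaling, with group medians, after removal of the length and GC trend, after thinning the deepest library, and with each library left out, in red for members higher with sh#16 and in blue for those higher with sh#87. The shortest bars are those of the length and GC trend (8) and of library totals (12).

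The rule was also applied to 6 libraries, leaving out 1 replicate number, and the 3 left-out libraries were read. The turns share libraries and a gene could be chosen in more than 1 turn, so the choices are not independent. As the libraries of a group are not known to be separate cultures, the counts describe agreement among libraries only. Over the 3 turns, 95 choices in the direction of sh#16 were made, and in 55 the left-out libraries had the order sh#16, NT, sh#87 from the top, an order that 6.26% of all genes had. In the other direction 50 of 62 choices kept the reverse order, which 3.96% of all genes had. The turns were uneven. With number 1 left out, 20 of 55 choices higher with sh#16 and 17 of 26 of the reverse kept the order, with number 2, 24 of 26 and 19 of 20, and with number 3, 11 of 14 and 14 of 16. The left-out sh#16 library lay above the sh#87 library in 87 of 95 choices (57.6% of all genes), and the reverse held in 61 of 62 (42.3%). The folds of the rule were met again in 25 of 95 choices (0.367% of all genes) and in 31 of 62 (0.231%).

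At the threshold, COX5A (1.39 and 0.793) and H3C12 (1.38 and 0.795) were the last genes inside the first direction, and CKLF (22.1, 27.6 and 15.7 CPM in NT, sh#16 and sh#87) and STING1 (74.1, 92.5 and 53.7 CPM), which with sh#16 fell just short of 25% above NT, were the first outside it. In the other direction NLGN3 and HOXA5 were just inside, and SNHG3 (136, 88.6 and 170 CPM) and RP13-516M14.1 (4.92, 3.97 and 7.96 CPM) were just outside.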

How the data were processed

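RNA of HNT34 cells was measured in 9 libraries, 3 per group, prepared with a strand-specific polyA kit. A table of estimated counts, listed by gene symbol and not normalized, was deposited by the authors. Its header refers to salmon, and the methods to STAR v2.7.1a with ENSEMBL and GRCh38. All values were whole numbers. The header stands 1 column left of the values, and groups follow the sample titles. The depth of 17096170 to 43502389 counts covers counting error only.

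Counts were scaled and tested in R 4.3.3 with edgeR 4.0.16 (filterByExpr, TMM, quasi-likelihood test of 3 groups, Benjamini-Hochberg over 16312 genes, adjusted p below 0.05), with DESeq2 1.42.0, other scalings, thresholds and left-out libraries as alternatives. The steps were tested on simulated counts. The planted changes were larger than the folds of the rule, in genes above its minimum level, with the same spread in all groups. That test therefore does not cover members near the threshold or the wider spread of the NT libraries. The members, the lists and the 42 list contents were chosen with earlier results of these data known. The named genes were, per direction, the 10 members with the largest smaller change, the 5 with the largest ratio between shRNAs and up to 10 on a list, with MECOM as the target. The other members, the HOXA genes, the other immediate early genes, copies and neighbors were named after their values were seen. Positions are from RefSeq (GRCh38.p14). Transcript lengths and GC content are from a GRCh37 annotation (84.4% of genes, loess span 0.5), with no coordinates taken from it. Replicate numbers were not treated as pairs in the main fit. Figures were drawn with matplotlib 3.10.9.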

Additional observations from a re-analysis of the deposited data

How the results depend on the processing

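The number of genes that met the rule was 47, and it was 91 at a mean of at least 1 CPM, 7 with folds of 1.5 and 296 with folds of 1.1. Leaving out 1 library gave 41 to 66. Members on a list were 23, and 45, 3, and 104 under the same settings in turn, and 13 after removal of the length and GC trend. Members that passed on opposite sides of NT were 38, and 19 at the stricter adjusted p of 0.01. Genes that differed between the shRNAs were 5498 in edgeR, 9661 with only these groups in the fit, 2890 at the stricter adjusted p, and 3593 to 8060 with 1 library left out (3593 without sh#16 replicate 2, 3660 without sh#87 replicate 2). The log2 fold change of TMX2-CTNND1 with sh#87 was -1.11 and ranged from -1.62 to 0.77 with 1 library left out, turning sign without NT replicate 3. The cause of these moves was not tested, beyond the stricter or looser thresholds themselves. Deviations of same-numbered libraries correlated at -0.34 to 0.18 over 9 pairs. No shared effect of the numbers was seen, but so few libraries cannot exclude that same-numbered ones were handled together. With a replicate block, 34 members passed on opposite sides of NT and 4613 genes differed between the shRNAs. The length and GC trend, the thinning, and the removal of histones and of read-through, pseudogene and clone names were chosen after seeing the data. Depth did not limit the comparison of abundant members. TMX2-CTNND1 had 16 to 862 counts per library and CTD-2192J16.20 had 0 to 206, with wide differences among the libraries within NT and within sh#16.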
